A study of Mus musculus with 15 samples.

Results

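Cornified envelope and skin barrier genes make the protein shell, the cell contacts and the lipids of the outermost layers of epidermis. They were examined in mouse eyes sequenced together with their eyelids. The members were a list of 42 gene symbols, chosen by name with earlier results of these data known. Of these, 41 were found among 20418 genes in all, and Flg (filaggrin) was not analysed here. One transcript stood for each gene, the one with the highest mean read count, a choice that mattered for the 5 members with several transcripts. Chromosome 3 held 18 of the members.

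The cornified envelope forms inside a dying keratinocyte. Transglutaminases first join envoplakin, periplakin and involucrin under the cell membrane, and then add loricrin and the small late cornified envelope (Lce) proteins, which make up most of the finished shell. Lipoxygenases and ceramide-making enzymes attach a coat of lipid to its outside. In the eyelid the margin and outer skin are keratinized epidermis, whereas cornea and conjunctiva are wet epithelia that normally do not cornify.

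The study asked how Egr1, a zinc finger protein that switches genes on soon after a stimulus, bears on eyelid development in BALB/c mice. The 15 libraries were single samples of eyes from BALB/c mice, into which an Egr1-/- line of C57BL/6 origin had been backcrossed in separate rounds of 5 and 4 generations. The groups were newborn Egr1-/- (2 libraries) and newborn wild type (2 libraries), and adult Egr1-/- (2 libraries) and adult wild type (1 library). At 3 days after birth, each of 8 eyes of 4 mice was a library. Mice E24 and E29 (Egr1-/-) each gave 1 open and 1 closed eye, E32 (Egr1-/-) gave 2 open eyes, and the Egr1+/- littermate E28 gave 2 closed eyes. Exact ages of newborn and adult mice, the round of backcrossing behind each library, and whether animals were pooled were not given in the labels, and p-values at those ages cover only the variation among libraries.

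Depth was 20334849 to 43907093 reads in transcripts per library. Levels are reads of a gene scaled to library size (CPM) unless another unit is named. Egr1 itself went against the genotype labels. It was at 157 to 367 CPM in the libraries labelled Egr1-/-, at 99.3 and 110.3 CPM in the Egr1+/- eyes and at 33.0 to 60.7 CPM in wild types, so every Egr1-/- group here is named as labelled. Lens markers (5 genes summed) came to 287 CPM in newborn labelled Egr1-/- replicate 1 and to 7155 CPM in adult labelled Egr1-/- replicate 1, against 32880 CPM or more in every other library. Both eyes of E32 stood apart in epidermal markers (6 suprabasal genes summed), with 4375 CPM in the right eye (OD) and 1576 CPM in the left (OS), against 58.0 and 70.2 CPM in the other open eyes. The main results for members are also given without newborn labelled Egr1-/- replicate 1 in newborns and without E32 at day 3. For adults, only the members' median is given without either labelled Egr1-/- library. Calls of markers and of other gene lists are given only with all libraries. In whole eyes, more cells of a type and more RNA per cell cannot be told apart.

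**Figure D1:**
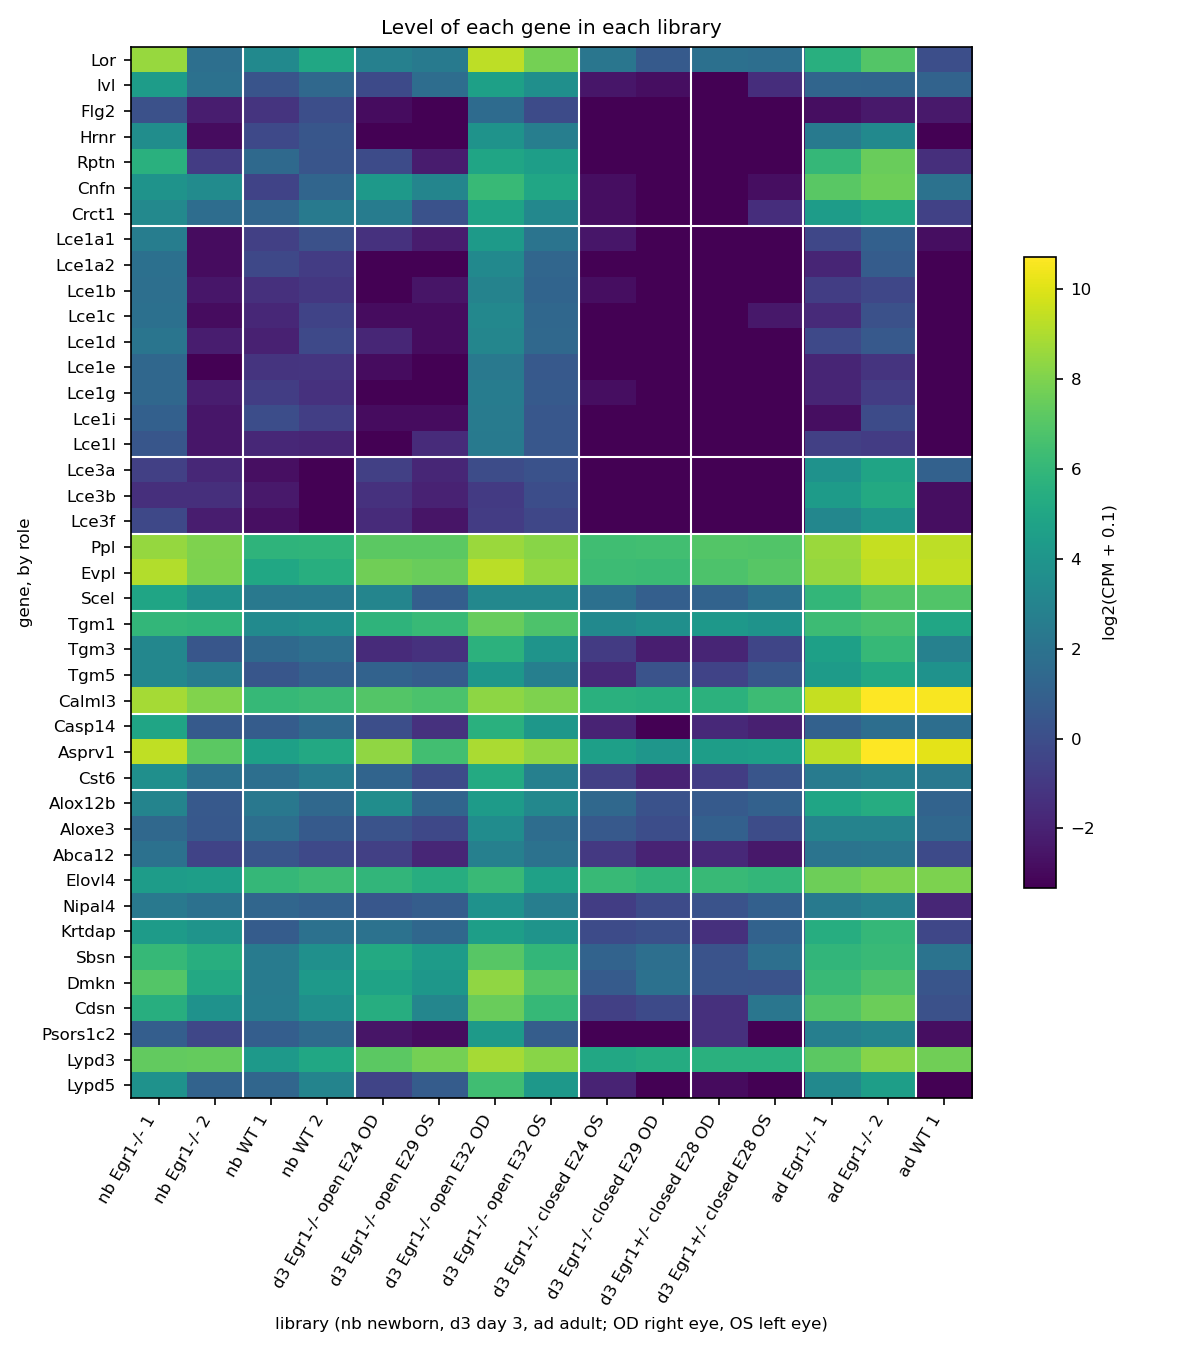
Level of each of the 41 genes (down, grouped by role) in each of the 15 libraries (across, named by label), as log2(CPM + 0.1). The plakins, Calml3, Asprv1 and Lypd3 were present in every library, while Lor and Hrnr were highest in E32 OD, followed by newborn Egr1-/- replicate 1 (643 and 381 CPM of Lor), and the Lce3 genes in adult Egr1-/- eyes.

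All members together gave 3156 and 1319 CPM in newborn labelled Egr1-/- eyes, against 343 and 469.8 CPM in newborn wild types. At day 3 they gave 1245 (E24), 929 (E29), 4415 and 2359 CPM (E32) in open eyes, against 369 (E24), 351 (E29), 459.9 and 509 CPM (E28) in closed eyes. Adults had 3279 and 6707 CPM in labelled Egr1-/- eyes and 4630 CPM in the wild type, so that the adult sums overlapped where the newborn ones did not. The make-up of these sums differed. Per length, in the authors' RPKM (which also take exon length into account), Calml3, a calmodulin-like protein of keratinocytes, and Asprv1, the protease that cuts profilaggrin, led in adults, at 775 and 697 RPKM in labelled Egr1-/- eyes and 948 and 662 RPKM in the wild type. Loricrin differed between libraries of one group, at 205 and 1.76 RPKM in newborn labelled Egr1-/- eyes, against 4.33 and 16.6 RPKM in newborn wild types. Of the 41 members, 24 were highest in the right eye of E32, 14 in adult labelled Egr1-/- replicate 2 and 3 in the adult wild type.

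Many members were not detected in particular groups. In the adult wild type 10 members had 0 reads, namely Hrnr, Lypd5 and 8 of the 9 Lce1 genes. In closed day 3 eyes, 13 members had 0 reads in labelled Egr1-/- eyes and 14 in Egr1+/- eyes, the 3 Lce3 genes, Rptn, Hrnr and Flg2 among both. No member was at 0 reads throughout a newborn group, the open eyes or the adult labelled Egr1-/- eyes. Where a group had 0 reads, a limit on the fold is given against a floor of 3 reads over the group, which covers counting error only.

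Start-site sequences of 35 members were matched by symbol in RefSeq (build GRCm38.p6, 250 bases before to 50 after the start). The TATA box, taken as the letters TATAAA, and the AP-1 site TGANTCA, bound by Fos and Jun proteins, were searched on both strands and were each found in 8 of the 35, against 13.6% and 7.8% of 32851 windows of all genes. Windows with both belonged to loricrin (Lor, chr3:92083093-92083392, minus strand), involucrin (Ivl, chr3:92573686-92573985, minus strand), repetin (Rptn, chr3:93393449-93393748, plus strand) and keratinocyte differentiation-associated protein (Krtdap, chr7:30787655-30787954, plus strand). They are shown because they hold both motifs. Capitals mark the AP-1 match and, nearer the start, the TATA box; no match of one motif overlapped the other.
Lor: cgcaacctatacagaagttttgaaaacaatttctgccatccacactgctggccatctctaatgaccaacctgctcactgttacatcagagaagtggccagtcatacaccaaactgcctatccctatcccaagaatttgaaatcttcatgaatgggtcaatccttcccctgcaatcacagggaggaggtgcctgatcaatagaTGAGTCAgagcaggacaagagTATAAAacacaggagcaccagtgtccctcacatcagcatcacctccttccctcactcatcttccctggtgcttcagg
Ivl: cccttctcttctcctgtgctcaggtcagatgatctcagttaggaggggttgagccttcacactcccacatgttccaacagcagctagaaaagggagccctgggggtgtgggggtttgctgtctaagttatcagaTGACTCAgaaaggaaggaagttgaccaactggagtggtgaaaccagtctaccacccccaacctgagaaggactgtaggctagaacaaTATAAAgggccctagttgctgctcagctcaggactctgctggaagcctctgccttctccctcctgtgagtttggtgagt
Rptn: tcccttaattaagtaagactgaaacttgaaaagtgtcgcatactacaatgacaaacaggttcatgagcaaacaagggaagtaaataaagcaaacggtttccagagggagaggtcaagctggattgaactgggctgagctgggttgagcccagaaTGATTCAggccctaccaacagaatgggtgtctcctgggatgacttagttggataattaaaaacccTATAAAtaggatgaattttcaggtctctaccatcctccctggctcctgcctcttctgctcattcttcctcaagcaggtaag
Krtdap: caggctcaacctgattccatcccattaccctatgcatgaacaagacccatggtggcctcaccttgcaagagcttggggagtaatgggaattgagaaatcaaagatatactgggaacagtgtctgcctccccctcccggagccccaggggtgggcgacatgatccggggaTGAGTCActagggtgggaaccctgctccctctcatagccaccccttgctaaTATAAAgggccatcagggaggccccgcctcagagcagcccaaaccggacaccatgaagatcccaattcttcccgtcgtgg
The TATA box lay at -27 in Lor, -29 in Ivl, -31 in Rptn and -30 in Krtdap, counted from the start site, and the AP-1 match at -48, -116, -96 and -81. The Egr1 site GCGNGGGCG was in none of the 35 windows and in 5.6% of all windows, which says only that these letters were not in these windows. The short motif CACCC was in 24 of the 35 and in 57.5% of all windows.

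The Lce genes lie side by side on chromosome 3 in subfamilies. The windows of Lce1a1 (chr3:92648258-92648557, minus strand) and Lce1a2 (chr3:92670266-92670565, minus strand) and that of Lce3b (chr3:92932729-92933028, plus strand) are shown because the Lce1 and Lce3 genes had unlike levels by age; no letters are capitalized.
Lce1a1: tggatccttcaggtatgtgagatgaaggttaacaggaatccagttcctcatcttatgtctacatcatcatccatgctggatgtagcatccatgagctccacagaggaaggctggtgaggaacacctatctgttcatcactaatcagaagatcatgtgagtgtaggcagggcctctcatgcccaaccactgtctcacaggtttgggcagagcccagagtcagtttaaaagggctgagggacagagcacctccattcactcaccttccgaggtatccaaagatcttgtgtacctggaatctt
Lce1a2: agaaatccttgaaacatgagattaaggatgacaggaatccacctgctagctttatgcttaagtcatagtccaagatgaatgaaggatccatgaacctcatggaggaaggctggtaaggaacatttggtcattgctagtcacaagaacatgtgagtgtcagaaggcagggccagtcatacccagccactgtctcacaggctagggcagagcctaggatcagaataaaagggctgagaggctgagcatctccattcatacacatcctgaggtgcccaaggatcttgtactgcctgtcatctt
Lce3b: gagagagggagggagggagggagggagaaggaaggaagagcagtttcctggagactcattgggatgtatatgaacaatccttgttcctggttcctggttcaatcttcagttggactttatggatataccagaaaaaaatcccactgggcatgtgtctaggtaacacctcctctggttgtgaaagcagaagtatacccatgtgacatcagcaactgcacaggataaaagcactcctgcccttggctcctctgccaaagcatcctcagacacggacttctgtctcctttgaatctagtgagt
In global alignments, the windows of Lce1 genes were identical to each other at a median of 67.3% of positions (51.8% to 86.0% over 36 pairs). Windows of Lce1 and Lce3 genes were identical at a median of 52.1% (49.1% to 54.4% over 27 pairs). Those of Lce3 genes were identical to each other at a median of 59.2% (56.4% to 59.5% over 3 pairs). The window of Lce1l was unlike the other Lce1 windows, at 51.8% to 56.2%, so the split by subfamily was not clean. Identity between windows of unrelated genes was not measured. Their transcripts are alike too. Of all stretches of 50 bases in the longest annotated transcript, 9.7% to 27.1% of an Lce1 gene and 12.1% to 48.0% of an Lce3 gene also occurred in another gene, so that reads may have been shared and values of single Lce genes are uncertain.

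In newborn eyes, Evpl, Ppl, Scel, Tgm1, Tgm5, Calml3, Asprv1, Krtdap, Sbsn, Dmkn, Cnfn, Lypd3 and Ivl were higher in labelled Egr1-/- than in wild-type libraries, and Elovl4 was lower. Of 41 members, all of which were tested, 13 rose and 1 fell (edgeR quasi-likelihood test, Benjamini-Hochberg adjusted p under 0.05 over all genes tested, n = 2 against 2). Over all 17485 genes tested, 15% rose and 9.37% fell. The median log2 fold change was 2.18 over the members and -0.05 over all genes. With the authors' library totals in place of TMM scaling, the split over all genes was 2746 higher and 1084 lower, against 2621 and 1638.

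Among the inner scaffold proteins, Evpl (envoplakin) had 538.5 and 242.5 CPM in labelled Egr1-/- eyes, against 32.3 and 44.9 CPM in wild types, a log2 fold change of 3.34 ± 0.49 (SE, edgeR adjusted p = 0.00567). Ppl (periplakin), its partner, had 363 and 254 CPM in labelled Egr1-/- eyes, against 56.5 and 57.5 CPM in wild types (2.44 ± 0.36, edgeR adjusted p = 0.00571). For both, every labelled Egr1-/- library was above both wild types. Scel (sciellin), another envelope precursor, rose by 2.10 ± 0.45.

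The cross-linking enzyme Tgm1 (transglutaminase 1), which anchors the envelope at the membrane, was nearly alike in the replicates of each group. It had 62.9 and 57.9 CPM in labelled Egr1-/- eyes, against 10.27 and 12.1 CPM in wild types, and rose by 2.43 ± 0.20 (log2 fold change ± SE, edgeR adjusted p = 0.00261). Tgm5 rose by 2.18 ± 0.39. Tgm3, the later epidermal transglutaminase, had 9.03 and 1.27 CPM in labelled Egr1-/- eyes, against 2.66 and 3.33 CPM in wild types, and its log2 fold change of 0.79 ± 0.85 did not pass. Calml3 rose by 2.33 ± 0.50 and Asprv1 by 3.75 ± 0.83, with Asprv1 at 659.9 and 143.9 CPM in labelled Egr1-/- eyes, against 24.9 and 34.8 CPM in wild types.

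Krtdap, Lypd3, Cnfn, Sbsn and Dmkn rose as well. Krtdap, a secreted keratinocyte protein, had 20.96 and 15.4 CPM in labelled Egr1-/- eyes, against 1.57 and 3.63 CPM in wild types (log2 fold change 2.80 ± 0.42, edgeR adjusted p = 0.00573). Lypd3, a membrane-linked adhesion protein, had 163.5 and 167.9 CPM in labelled Egr1-/- eyes, against 18.3 and 32.8 CPM in wild types (2.70 ± 0.41, edgeR adjusted p = 0.00588). Cnfn (cornifelin), an envelope protein, had 14.5 and 10.95 CPM in labelled Egr1-/- eyes, against 0.618 and 2.27 CPM in wild types (3.12 ± 0.50, edgeR adjusted p = 0.00699). None of these groups overlapped. Sbsn (suprabasin) had 66.8 and 43.6 CPM in labelled Egr1-/- eyes, against 5.61 and 13.3 CPM in wild types (2.54 ± 0.42, edgeR adjusted p = 0.00749). Dmkn (dermokine), a gene of the same cluster as Sbsn and Krtdap, rose by 2.68 ± 0.73. Cdsn (corneodesmosin), which holds cornified cells together, had 44.5 and 14.0 CPM in labelled Egr1-/- eyes, against 5.85 and 12.8 CPM in wild types, and did not pass (1.65 ± 0.60, edgeR adjusted p = 0.0902). Cst6, an inhibitor of cathepsins, and Lypd5, a relative of Lypd3, did not pass either, with log2 fold changes of 0.82 ± 0.57 and 0.67 ± 0.90.

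Loricrin and the Lce genes did not pass, and the replicates of Lor and of the Lce1 sum disagreed. Lor had 381 and 3.46 CPM in labelled Egr1-/- eyes, against 9.84 and 32.5 CPM in wild types. One labelled Egr1-/- library was thus above both wild types and the other below both, and the log2 fold change of 3.18 ± 1.66 did not pass (edgeR adjusted p = 0.211). The 9 Lce1 genes behaved alike, with a sum of 28.9 and 0.576 CPM in labelled Egr1-/- eyes, against 3.76 and 4.58 CPM in wild types. Hrnr (hornerin), a filaggrin-like protein, had 11.5 and 0.0384 CPM in labelled Egr1-/- eyes, against 0.761 and 1.24 CPM in wild types. Rptn, another filaggrin-like protein, had 47.7 and 0.461 CPM in labelled Egr1-/- eyes, against 2.71 and 1.20 CPM in wild types (3.64 ± 1.61, edgeR adjusted p = 0.151). The 3 Lce3 genes had few reads but lay above both wild types in both labelled Egr1-/- libraries. Lce3a had 16 and 5 reads in labelled Egr1-/- eyes, against 1 and 0 reads in wild types (edgeR adjusted p = 0.0569), and the adjusted p was 0.104 for Lce3b and 0.0755 for Lce3f. Casp14, the caspase of cornifying cells, had 30.85 and 1.46 CPM in labelled Egr1-/- eyes, against 1.57 and 2.69 CPM in wild types (2.92 ± 1.17, edgeR adjusted p = 0.119). Ivl (involucrin), an early envelope protein, had 21.6 and 3.69 CPM in labelled Egr1-/- eyes, against 1.14 and 2.61 CPM in wild types, and passed narrowly (2.75 ± 0.81, edgeR adjusted p = 0.0493). Without labelled Egr1-/- replicate 1 it was at 0.97 and no longer passed (edgeR adjusted p = 0.356), nor did it pass without either newborn wild type or without the adult wild type (edgeR adjusted p = 0.258, 0.132 and 0.0577).

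Of the lipid genes among the members, Elovl4 fell and the others did not pass. Elovl4, which elongates the very long fatty acids of barrier lipids and is also used in photoreceptors, had 21.9 and 23.3 CPM in labelled Egr1-/- eyes, against 63.8 and 77.4 CPM in wild types, and fell (log2 fold change -1.64 ± 0.20, edgeR adjusted p = 0.00369). Retina markers (5 genes summed) moved with it, at 118.8 and 270.3 CPM in labelled Egr1-/- eyes, against 904 and 1090 CPM in wild types, and all 5 fell. Their part in the result for Elovl4 was not tested. The lipoxygenases Alox12b and Aloxe3, the lipid transporter Abca12 and Nipal4 (ichthyin) did not pass, with log2 fold changes of 0.36, -0.28, 1.11 and 1.01. For Nipal4 both labelled Egr1-/- libraries were nevertheless above both wild types (1.01 ± 0.32, edgeR adjusted p = 0.0624).

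Without overlap between groups, 18 of 41 members were higher in both labelled Egr1-/- libraries than in both wild types and 2 were lower, against 34% and 33.7% of all genes. Leaving out labelled Egr1-/- replicate 1, the library nearly without lens transcripts, the members' median log2 fold change was -0.44, against -0.0255 over all genes. In that fit Lor was at -2.61 and Casp14 at -0.55, while the values of Tgm1, Evpl, Ppl, Krtdap, Lypd3, Cnfn and Sbsn still passed. Without labelled Egr1-/- replicate 2 the members' median was 2.55, against -0.199 over all genes. Without wild-type replicate 1 no member passed, and no gene of 16571 did by edgeR, although an unadjusted p under 0.05 was still found for 4746 genes. With wild-type replicate 2 left out instead, the members' median log2 fold change was 2.449, against 0.000387 over all genes. Basal epidermis markers (6 genes summed) came to 9313 and 8268 CPM in labelled Egr1-/- eyes, against 1012 and 1510 CPM in wild types, and all 6 rose. Suprabasal markers came to 1842 and 338 CPM in labelled Egr1-/- eyes, against 82.6 and 437.7 CPM in wild types, and none of the 6 passed. Conjunctiva and mucosa markers (5 genes summed) came to 4017 and 2140 CPM in labelled Egr1-/- eyes, against 231 and 243.8 CPM in wild types, and all 5 rose. Neutrophil markers (4 genes summed) came to 36.5 and 53.0 CPM in labelled Egr1-/- eyes, against 4.09 and 2.91 CPM in wild types, and all 4 rose. Skeletal muscle markers (5 genes summed) came to 3793 and 4769 CPM in labelled Egr1-/- eyes, against 1455 and 2060 CPM in wild types, and 2 rose. The part of these markers in the members' values was not tested.

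**Figure D2:**
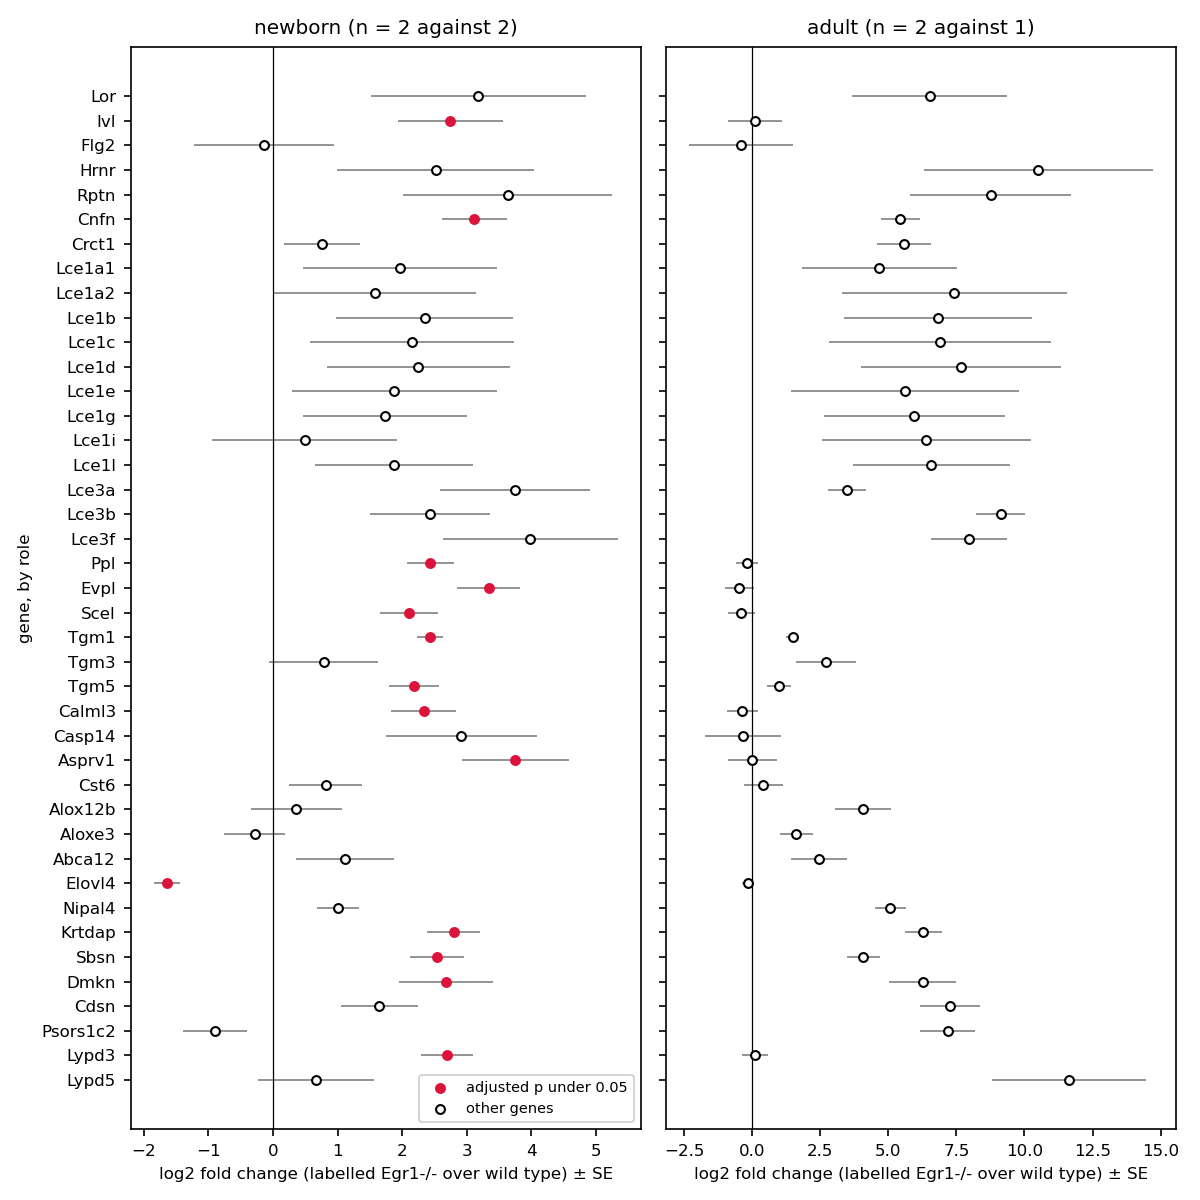
Log2 fold change ± SE of each gene (down, by role), labelled Egr1-/- over wild type, in newborn eyes (left, 2 against 2 libraries) and adult eyes (right, 2 against 1); filled points passed at an adjusted p under 0.05. In newborns 13 genes lie right of 0 and Elovl4 left of it as filled points, and in adults no point is filled; fitted values of the 10 genes at 0 reads in the adult wild type depend on the prior count of the fit.

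Other genes of the barrier, from lists chosen with earlier results of these data known, were counted in the same fit. In newborn eyes 8 of 11 epidermal differentiation factors rose and 1 fell, and Zfp750, a factor of terminal differentiation, rose by 3.05 ± 0.23 (log2 fold change ± SE, edgeR adjusted p = 0.00261) and Grhl3, needed for barrier formation, by 2.32 ± 0.29. Of 10 tight junction genes 7 rose, with Cldn4 at 3.36 ± 0.31 and Cldn7 at 3.27 ± 0.32. Of 12 protease and peptide-processing genes 7 rose, among them Spink5, the inhibitor of the kallikreins that shed the outer layer, by 4.50 ± 0.32 and Prss8, a channel-activating protease, by 2.72 ± 0.39. Of 19 barrier lipid genes tested 6 rose, with Sult2b1, which sulphates cholesterol, at 1.58 ± 0.26. None of 11 other genes of the epidermal differentiation complex, the chromosome 3 cluster that holds the Lce genes, passed. Tchhl1 had the smallest p of that list, with a log2 fold change of -2.28 (edgeR adjusted p = 0.0638).

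In adult eyes the members with the widest gaps were those that the wild type almost lacked. No member and no gene of 17485 passed (0% of all genes, n = 2 against 1), while 19 members and 493 genes in all had an unadjusted p under 0.05. The Wald test of DESeq2 called 15 members and 95 genes in all higher. The smallest adjusted p among members was 0.0989. Without overlap, 32 of 41 members were higher in both labelled Egr1-/- libraries than in the single wild type and 4 were lower, against 26.3% and 31.8% of all genes. The 32 include the 10 members at 0 reads in the wild type. Those 10 passed the filter on reads through other libraries and could not come out lower, so their direction was fixed in advance. The members' median log2 fold change was 5.06, and 2.46 with the 10 members at 0 reads in the wild type set at their lower bound, against -0.00286 over all genes. With no such bounds, it was 5.263 without adult labelled Egr1-/- replicate 1, the adult library low in lens transcripts, against -0.0195 over all genes. Without replicate 2 it was 3.921, against -0.0041 over all genes.

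Lce3b had 20.8 and 36.4 CPM in labelled Egr1-/- eyes, against 0.0459 CPM (1 read) in the wild type, a ratio of 619 (95% exact interval for counting error alone 111 to 24480). The fitted log2 fold change was 9.13 ± 0.90 (edgeR adjusted p = 0.0989). Lce3f showed a ratio of 278 (49.7 to 11010), also against 1 read. Lce3a had 14.3 and 28.7 CPM in labelled Egr1-/- eyes, against 1.93 CPM in the wild type. Hrnr was at least 55.4-fold higher and Lypd5 at least 119-fold higher in labelled Egr1-/- eyes, both against 0 reads. All 3 Lce3 genes thus lay apart from the wild type, without replicates of that wild type to set its spread.

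Among the remaining members, Krtdap had 42.4 and 65.4 CPM in labelled Egr1-/- eyes, against 0.688 CPM in the wild type (log2 fold change 6.28 ± 0.69, edgeR adjusted p = 0.128). Nipal4, a membrane protein of the lipid barrier, had 5.41 and 7.22 CPM in labelled Egr1-/- eyes, against 0.183 CPM (4 reads) in the wild type (edgeR adjusted p = 0.128). Cnfn had 138 and 198 CPM in labelled Egr1-/- eyes, against 3.85 CPM in the wild type (edgeR adjusted p = 0.152). Both labelled Egr1-/- libraries were well above the wild type for each. Psors1c2, a gene of the psoriasis susceptibility region in humans, had 6.56 and 8.28 CPM in labelled Egr1-/- eyes, against 0.0459 CPM (1 read) in the wild type, a ratio of 161 (28.7 to 6387). Cdsn had 119.6 and 191.8 CPM in labelled Egr1-/- eyes, against 1.01 CPM in the wild type (7.26 ± 1.09, edgeR adjusted p = 0.202). Lor had 45.4 and 123 CPM in labelled Egr1-/- eyes, against 0.918 CPM in the wild type (6.51 ± 2.85, edgeR adjusted p = 1). Rptn had 64.99 and 178.8 CPM in labelled Egr1-/- eyes, against 0.275 CPM (6 reads) in the wild type.

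The plakins, Ivl and Casp14 had no such gap. Evpl had 358 and 626 CPM in labelled Egr1-/- eyes, against 683 CPM in the wild type. Ppl had 391 and 713 CPM in labelled Egr1-/- eyes, against 631 CPM in the wild type, so that its groups overlapped. Ivl had 2.33 and 2.22 CPM in labelled Egr1-/- eyes, against 2.11 CPM in the wild type, and Casp14 had 1.98 and 3.28 CPM in labelled Egr1-/- eyes, against 3.30 CPM in the wild type. Log2 fold changes were -0.47 ± 0.54 for Evpl, -0.19 ± 0.41 for Ppl, 0.11 ± 0.99 for Ivl and -0.33 ± 1.39 for Casp14. Tgm1 had 77.5 and 99.5 CPM in labelled Egr1-/- eyes, against 31.7 CPM in the wild type (1.48 ± 0.24, edgeR adjusted p = 0.299). Suprabasal markers summed to 741 and 1068 CPM in labelled Egr1-/- eyes, against 83.3 CPM in the wild type, mostly through Krt1 and Krt10. Krt1 had 389 and 518 CPM in labelled Egr1-/- eyes, against 5.14 CPM in the wild type, and Krt10 332 and 501 CPM, against 20.5 CPM. Dsg1a of the same list went the other way, at 12.4 and 39.8 CPM, against 56.9 CPM. Basal epidermis markers came to 6374 and 9952 CPM in labelled Egr1-/- eyes, against 9947 CPM in the wild type. Cornea markers (Krt12, Aldh3a1 and Kera summed) came to 735 and 7162 CPM in labelled Egr1-/- eyes, against 11120 CPM in the wild type, and hair follicle markers to 22.1 and 20.6 CPM in labelled Egr1-/- eyes, against 15.8 CPM in the wild type. Conjunctiva and mucosa markers came to 5913 and 9770 CPM in labelled Egr1-/- eyes, against 2165 CPM in the wild type, and neutrophil markers to 29.8 and 32.6 CPM in labelled Egr1-/- eyes, against 2.71 CPM in the wild type. Most of the neutrophil sum was S100a9, at 18.3 and 22.9 CPM in labelled Egr1-/- eyes, against 0.963 CPM in the wild type. Csf3r had 7.17 and 4.86 CPM, against 1.42 CPM, and Retnlg 0.176 and 0.139 CPM, against 0.138 CPM. The part of these tissues in the adult values was not tested.

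The genotype effect itself was set against age by an interaction term. Of 41 members, 2 had a greater log2 fold change in adults than in newborns and 1 a smaller one, against 0.904% and 1.94% of all genes. For Nipal4 the difference, adult minus newborn, was 4.06 ± 0.64 (edgeR adjusted p = 0.0419), with a newborn value of 1.01 that did not pass and an adult one that rests on 4 wild-type reads. For Psors1c2 it was 8.08 ± 1.12 (edgeR adjusted p = 0.0368), with a newborn value of -0.90 and an adult one that rests on 1 wild-type read. For Evpl it was -3.81 ± 0.70 (edgeR adjusted p = 0.0447). These 3 calls were lost when either newborn wild type or newborn labelled Egr1-/- replicate 1 was left out, with edgeR adjusted p of 0.193, 0.166 and 0.0692 for Nipal4. Of the other barrier lists, 5 of 10 tight junction genes had a smaller effect in adults, with Cldn4 at -3.19 ± 0.45 (edgeR adjusted p = 0.0368). Zfp750 (-3.40 ± 0.33) and Trp63 (-2.64 ± 0.49) did so among factors, and Prss8 (-2.96 ± 0.57) among proteases.

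Over both ages together, with age as a term, no member passed for labelled Egr1-/- against wild type (n = 4 against 3), and 2 of 17485 genes did, 0.0114% of them. At an unadjusted p under 0.05 there were 16 members and 3674 genes in all. DESeq2 called 13 members higher and 1 lower, against 990 and 496 of 17592 genes. The smallest adjusted p among members was 0.115, and the members with the smallest p were Tgm1, Sbsn, Cnfn, Lce3a and Lce3f. Without the adult wild type, 12 members rose and 1 fell, against 2335 and 2391 of 16352 genes, in a fit that only the newborn libraries then inform.

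Several members, with Lce3a, Lce3f and Elovl4 among them, were higher in adults than in newborns. In adult against newborn eyes, over both genotypes (n = 3 against 4), 12 of 41 members rose and none fell by edgeR, against 21.4% of all genes in each direction. An unadjusted p under 0.05 was found for 15 members and 9042 genes in all. DESeq2 called 1 member and 4410 of 17592 genes lower. The 3 Lce3 genes were among those that rose, although a filter on reads fixed the direction of Lce3b. Lce3a had 14.3, 28.7 and 1.93 CPM in adults, against 0.533, 0.192, 0.0475 and 0 CPM in newborns, the lowest adult value being that of the wild type, and rose by 5.89 ± 0.53 (log2 fold change ± SE, edgeR adjusted p = 0.000391). Lce3b rose by 6.23 ± 0.94 and Lce3f by 4.62 ± 0.87, although both had 1 read in the adult wild type. Lce3b had 8 reads or fewer in every newborn library. It passed the filter only through the adult labelled Egr1-/- libraries, so its rise is no separate result. In wild types alone, Lce3b was at 0.0459 CPM in the adult, against 0.0951 and 0 CPM in newborns. Elovl4 had 195 to 243 CPM in adults, against 21.9 to 77.4 CPM in newborns, and rose by 2.72 ± 0.34 (edgeR adjusted p = 0.00122). Its groups did not overlap. Also higher in adults were Tgm5 (2.42 ± 0.36), Scel (3.12 ± 0.60), Cnfn (2.99 ± 0.62), Calml3 (2.90 ± 0.66), Tgm3, Asprv1, Ppl and Tgm1 (0.94 ± 0.22). The enzymes Casp14, Alox12b and Aloxe3 did not pass, with log2 fold changes of -1.26, 1.77 and 1.29. Conjunctiva and mucosa markers came to 2165 to 9770 CPM in adults, against 231 to 4017 CPM in newborns, with 3 of 5 higher and 1 lower. Retina markers came to 12500 to 27880 CPM in adults, against 118.8 to 1090 CPM in newborns, with 4 of 5 higher. Cornea markers came to 735 to 11120 CPM in adults, against 72.55 to 129.7 CPM in newborns, with 2 of 3 higher. Of 6 hair follicle markers, 5 were lower in adults. The part of these markers in the age values, that of Elovl4 included, was not tested.

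Loricrin and the Lce1 genes did not pass with age. Lor was at -2.13 ± 1.56 (log2 fold change ± SE, edgeR adjusted p = 0.307), and at 0.36 without newborn labelled Egr1-/- replicate 1. The 9 Lce1 genes lay between -2.72 and -1.01, none past the threshold. The Lce1 and Lce3 sums thus had unlike profiles. The Lce1 sum was 28.9 and 0.576 CPM in newborn labelled Egr1-/- eyes, 77.0 and 19.3 CPM in the open eyes of E32, and 3.26 and 8.70 CPM in adult labelled Egr1-/- eyes. The Lce3 sum was 1.53 and 0.576 CPM in newborn labelled Egr1-/- eyes, 1.74 and 2.60 CPM in E32, and 44.1 and 81.8 CPM in adult labelled Egr1-/- eyes. The 3 Lce3 genes had 0 reads in all 4 closed eyes, and the Lce1 genes had 4 reads or fewer in each.

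**Figure D3:**
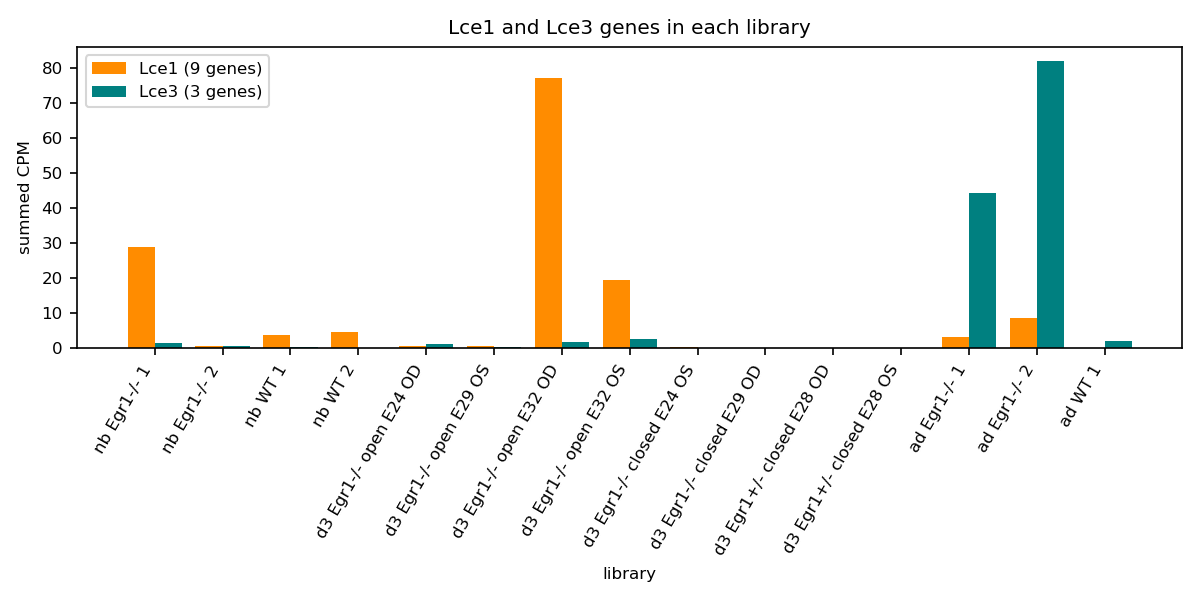
Summed CPM of 9 Lce1 genes (orange) and 3 Lce3 genes (teal) in each library. Lce1 is tallest in E32 OD (77.0 CPM) and newborn Egr1-/- replicate 1 (28.9 CPM), and Lce3 in both adult Egr1-/- libraries (44.1 and 81.8 CPM); closed eyes are near 0 for both.

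At day 3, eyes with open lids were set against closed eyes with the mouse as a block, so that the contrast rests on E24 and E29, which had 1 of each. Tgm1, Lypd3 and Asprv1 were higher in the open eye. Cnfn passed too, but its direction was fixed by a filter on reads, as given next. Only 24 members had enough reads to be tested, and the 17 others, among them all Lce genes, were too low in most eyes. Some of the 24, such as Cnfn, Crct1 and Ivl, had 6 reads or fewer in every closed eye and passed this filter through the open eyes, so their direction was fixed by it. Of the 24, 4 rose, Cnfn among them, and none fell, against 0.488% and 0.0593% of 15170 genes. There were 14 members and 885 genes in all with an unadjusted p under 0.05. DESeq2 called 12 members and 331 of 15159 genes higher.

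Cnfn had 19.1 CPM in the open and 0.0408 CPM in the closed eye of E24, and 8.20 CPM in the open and 0 CPM in the closed eye of E29. Summed over all day 3 eyes it had 3535 reads in open and 2 in closed ones. Its fitted log2 fold change of 9.09 ± 0.82 (edgeR adjusted p = 0.00607) depends on the prior count, and the filter fixed its direction. Tgm1 had 56.4 CPM in the open and 10.16 CPM in the closed eye of E24, and 69.98 CPM in the open and 12.5 CPM in the closed eye of E29. The open eye was 5.55-fold and 5.61-fold above the closed one in the 2 mice (2.48 ± 0.25, edgeR adjusted p = 0.00966). Lypd3 was 4.34-fold (E24) and 5.42-fold (E29) above the closed eye (2.28 ± 0.24, edgeR adjusted p = 0.0106). Asprv1 was 13.8-fold and 5.40-fold above it in the same mice (3.12 ± 0.35, edgeR adjusted p = 0.0142). These 4 calls were lost when either E24 or E29 was left out, while 8 members and 122 of 15377 genes rose without E32. Basal epidermis markers came to 3950 (E24) and 6805 CPM (E29) in the open eyes, against 1160 (E24) and 1583 CPM (E29) in the closed eyes, and 2 of 6 rose. Conjunctiva and mucosa markers came to 1260 (E24) and 1258 CPM (E29) in the open eyes, against 188.8 (E24) and 284.4 CPM (E29) in the closed eyes, and 2 of 5 rose. The part of these markers in the members' values was not tested.

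Among members that did not pass, differences within the 2 mice varied in size and direction. Tgm3 had a log2 fold change of -0.04 ± 1.07 and Aloxe3 one of -0.35 ± 0.73, while Tgm5 was at 1.71 ± 0.84 and Lypd5 at 3.61 ± 1.35. Cdsn was 81.6-fold (E24) and 11.1-fold (E29) above the closed eye (log2 fold change 4.93 ± 1.26, edgeR adjusted p = 0.273). Crct1, a cysteine-rich protein encoded in the epidermal differentiation complex, had 155 reads in the open and 1 in the closed eye of E24, and 28 in the open and 0 in the closed eye of E29. Ivl had 21 reads in the open and 2 in the closed eye of E24, and 84 in the open and 1 in the closed eye of E29 (4.71 ± 1.17, edgeR adjusted p = 0.246). Evpl was 2.55-fold and 2.40-fold, and Ppl 1.71-fold and 1.64-fold above the closed eye in E24 and E29. Lor was 1.52-fold (E24) and 3.59-fold (E29) above the closed eye, with 6.76 CPM in the open and 4.45 CPM in the closed eye of E24, and 5.22 CPM in the open and 1.46 CPM in the closed eye of E29 (1.15 ± 0.55, edgeR adjusted p = 0.989).

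**Figure D4:**
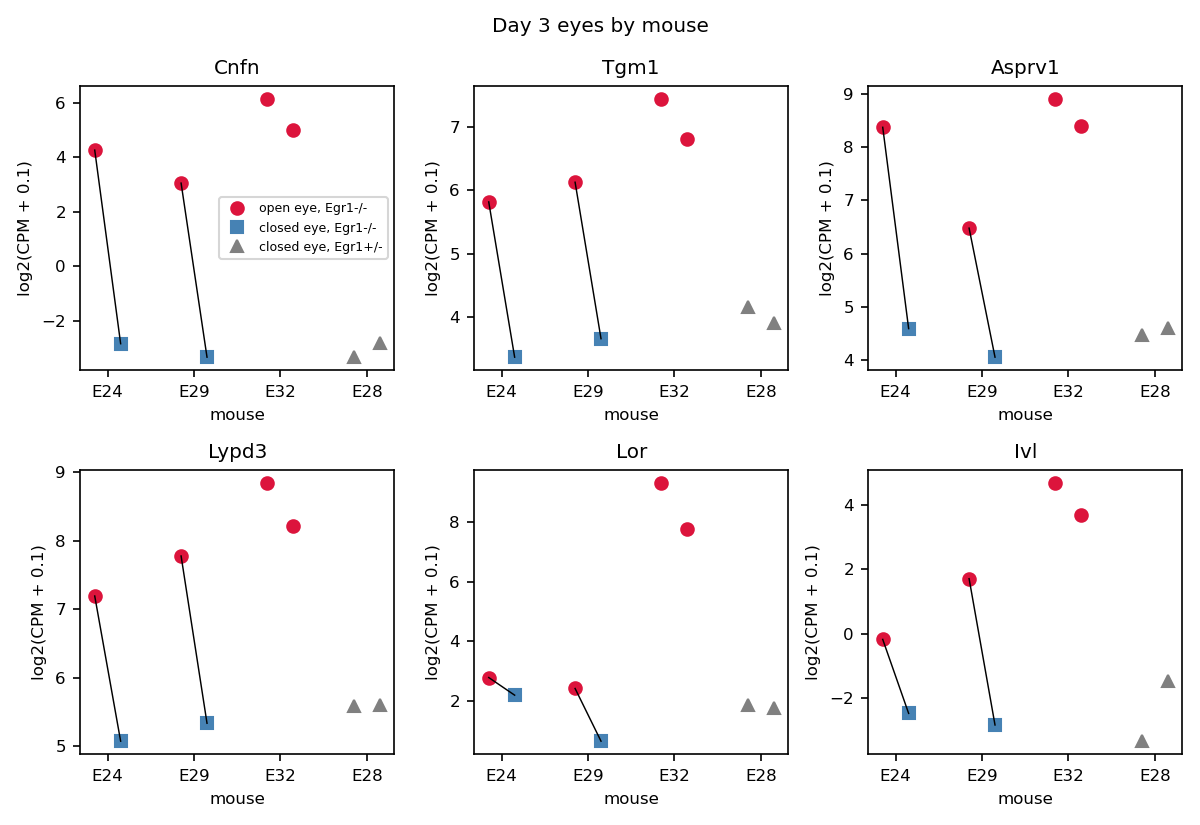
Level, as log2(CPM + 0.1), of 6 genes in the 8 day 3 eyes, by mouse (across); lines join the open and closed eye of one mouse. The open eye lies above the closed eye of E24 and E29 in every panel, and the 2 open eyes of E32 lie above all other eyes, most of all for Lor (643 and 218 CPM).

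Both eyes of E32, the mouse with 2 open eyes, were above the other 6 eyes for 39 of 41 members, against 15.1% of 16453 genes. The exceptions were Alox12b and Elovl4. These genes were kept if any single mouse had enough reads, so some members entered through E32 alone. Members with 0 reads in the other 6 eyes, such as Hrnr and Lce1a2, could only come out higher. Their direction was fixed by the filter, and the count of 39 includes them. Lor had 643 and 218 CPM in E32, against 6.76 and 5.22 CPM in the other open eyes and 1.46 to 4.45 CPM in closed eyes. Hrnr had 14.7 and 6.31 CPM in E32 and 0 reads in all other day 3 eyes. Casp14 had 48.4 and 17.1 CPM in E32, against 0.939 and 0.302 CPM in the other open eyes. Tgm1, in contrast, had 175 and 112 CPM in E32, against 56.4 and 69.98 CPM in the other open eyes. With 1 mouse of this kind there is no test of E32 against the others. Hair follicle markers came to 2836 and 156.5 CPM in E32, against 26.9 to 31.8 CPM in the other 6 eyes, and retina markers to 534 and 115 CPM in E32, against 928 to 1520 CPM in the others. What these tissues contributed to the levels in E32 was not tested.

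Labelled Egr1-/- mice and the Egr1+/- mouse were compared with the 2 eyes of each summed (3 mice against 1). The labelled Egr1-/- mice gave 4 open and 2 closed eyes and the Egr1+/- mouse 2 closed eyes. Genotype and open lids therefore cannot be told apart in this comparison. No member and no gene of 16453 passed (0% of all genes), with 3 members and 279 genes in all at an unadjusted p under 0.05. DESeq2 called 4 members and 91 of 16453 genes higher. The smallest p among members was that of Cnfn, with 0.0408 to 70.3 CPM except for 1 eye at 0 reads in labelled Egr1-/- mice, against 0 and 0.0438 CPM in the eyes of the Egr1+/- mouse. The closed eyes of labelled Egr1-/- mice had 0.0408 and 0 CPM of Cnfn. Every eye of the 3 labelled Egr1-/- mice was above both Egr1+/- eyes for 1 member, Dmkn, and below for none, against 3.41% and 4.74% of all genes. The lowest of these Dmkn values was 1.51 CPM, in the closed eye of E24, against 1.16 and 1.10 CPM in the Egr1+/- eyes. In closed eyes alone, Tgm1 had 10.16 and 12.5 CPM in labelled Egr1-/- eyes, against 17.6 and 14.8 CPM in Egr1+/- eyes, and Lor had 4.45 and 1.46 CPM in labelled Egr1-/- eyes, against 3.54 and 3.24 CPM in Egr1+/- eyes. The members' median log2 fold change was 5.646 with all mice, 1.045 without E32 and -0.3535 in closed eyes alone. Over all genes these medians were -0.00468, 0.0032 and -0.0133. The size of the members' median with all mice is uncertain. In the Egr1+/- eyes 14 members had 0 reads, and their fitted values, all above 5.646, depend on the prior count of the fit. No median with lower bounds was computed here. The day 3 mice thus showed no difference between the labelled genotypes that passed, in a design with 1 Egr1+/- mouse.

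Markers of keratinized epidermis and loricrin were both highest in the same libraries. Across the libraries the suprabasal sum spanned 15 to 4375 CPM and Lor 0.918 to 643 CPM. The 2 highest libraries for both were the right eye of E32 and newborn labelled Egr1-/- replicate 1. Newborn labelled Egr1-/- replicate 2 had a suprabasal sum of 338 CPM beside 3.46 CPM of Lor, while newborn wild-type replicate 2, at 437.7 CPM, had 32.5 CPM of Lor. In newborn eyes Krt1 and Krt10 made up most of the sum. Krt1 had 896 and 224 CPM in newborn labelled Egr1-/- eyes, against 36.9 and 213 CPM in wild types, and Krt10 had 908 and 93.1 CPM in labelled Egr1-/- eyes, against 35.9 and 205.7 CPM in wild types. Krt2 stayed low, at 0.766 and 0.423 CPM in newborn labelled Egr1-/- eyes, against 1.47 and 0.299 CPM in wild types. Among the suprabasal markers, Dsc1 was at 0 reads in the open eye of E24, the closed eye of E29 and the right eye of E28. No cornea marker was at 0 in any library.

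**Figure D5:**
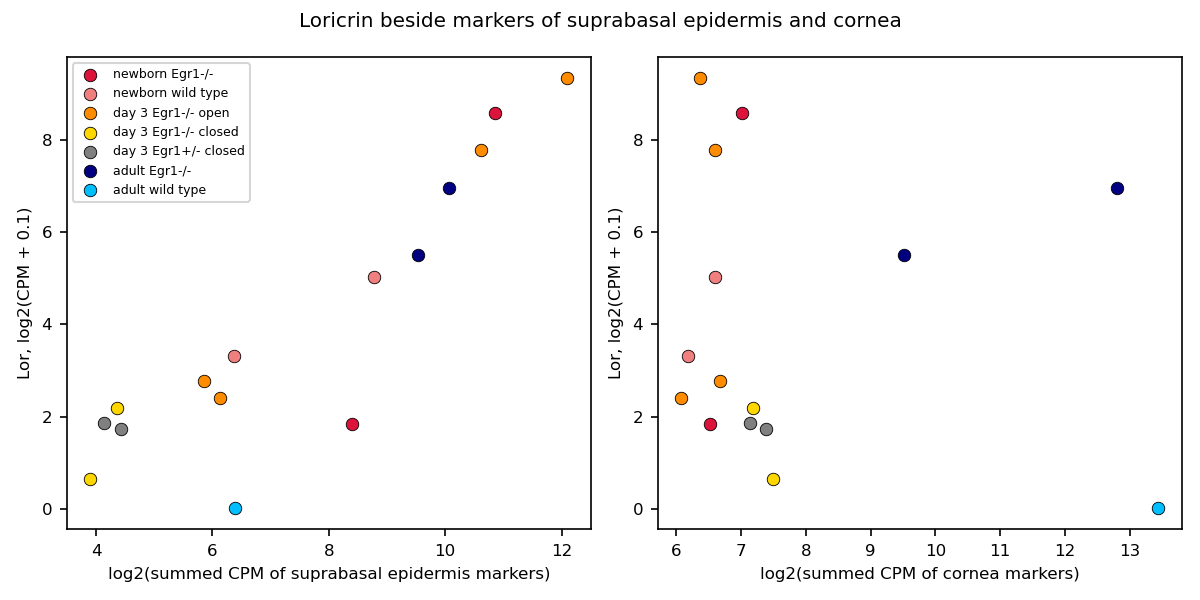
Lor, as log2(CPM + 0.1), against the summed CPM of suprabasal epidermis markers (left) and of cornea markers (right), both on a log2 scale; each point is 1 of 15 libraries, coloured by labelled group. On the left, E32 OD (643 CPM of Lor) and newborn Egr1-/- replicate 1 (381 CPM) lie at the upper right; on the right, the adult wild type has the highest cornea sum (11120 CPM) and the lowest Lor (0.918 CPM).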

How the data were processed

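Poly(A)+ RNA of eyes with eyelids was amplified by 18 PCR cycles and sequenced on an Illumina instrument, with adaptors ligated to double-stranded cDNA, which does not keep strand, per the labels' protocols. The labels' protocols mention both fixation and RNAlater, and do not say whether any sequenced eye was fixed. The submitters' processing notes name the build mm8 and the tools TopHat2 2.0.11, Bowtie 0.12.9, CASAVA 1.8 and SAMtools; the counting tool and annotation are not given in the sources used here. Each deposited table held raw read counts for 24373 transcripts, beside the authors' RPKM values, in which reads are scaled to exon length and a library total. One transcript per symbol was kept, that with the highest mean count.

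Counts were tested in R 4.3.3 with edgeR 4.0.16 (TMM over all 15 libraries, filterByExpr, quasi-likelihood test), with Benjamini-Hochberg adjustment over all genes tested and a threshold of 0.05. Dividing the absolute log2 fold change by the root of its F statistic gave the SE. The 7 newborn and adult libraries shared 1 fit by group mean, and a second with age and genotype as terms. The single adult wild type took its variance from the remaining groups. In the fit of day 3 eyes, mouse was a blocking term. For labelled Egr1-/- against Egr1+/- mice, reads of both eyes were summed, and the single Egr1+/- mouse took its variance from the 3 labelled Egr1-/- mice. Alternatives were DESeq2 1.42.0, its size factors, the authors' library totals, no filter on low counts, the mean of all transcripts, subsets of libraries, a replicate block and each library or mouse left out. Other pseudocounts apply to RPKM alone and were not run. Tests ran on counts; the scripts were tested on simulated data.

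Intervals and floors cover counting error only, and reads amplified by PCR are not independent molecules. Replicate numbers did not pair the libraries: deviations of same-numbered libraries correlated at 0.0381 (newborn labelled Egr1-/- and wild type) and 0.129 (adult and newborn labelled Egr1-/-) over 15292 genes. The members and the gene lists were chosen with earlier results of these data known. Values per library were given for up to 8 members with the smallest p that passed or, where fewer than 3 passed, the 5 with the smallest p, and for Lor, Ivl, Tgm1 and Casp14. Up to 4 genes of each other barrier list were named, those with the smallest p. Other members named were chosen after their values were seen. Promoter windows came from RefSeq tables of GRCm38.p6, and shared stretches from GENCODE transcripts; no coordinates of mm8 were converted.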

Additional observations from a re-analysis of the deposited data

Results flagged for a closer look

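Among the 4 open eyes of day 3, the 41 members were checked for a library far from the others, as its gap to the nearest value divided by the whole range, against Dixon's 95% critical value for 4 samples. Of these 4 eyes 2 came from 1 mouse, E32, so they were not independent. Chance alone flags about 1 in 20 such groups, or about 2 of 41 members, and 3 members were flagged. Psors1c2 (0.92) and Cst6 (0.843), were far higher in the right eye of E32, at 20.1 and 38.6 CPM, than in its left eye, at 1.64 and 6.75 CPM. Scel (0.869) was far lower in the open eye of E29, at 1.74 CPM, than in the other open eyes, at 8.42 to 9.42 CPM.

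The genotype effect differed between ages, by the interaction term of the edgeR fit, for Nipal4 (4.06, log2, adult minus newborn), Psors1c2 (8.08) and Evpl (-3.81).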

How the results depend on the processing

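Counts of members that passed depended on the tool and on single libraries. For labelled Egr1-/- against wild type in adults (0 higher), 8 members were higher with the authors' library totals, 1 without a filter on low counts and 15 by DESeq2. Over all genes these settings gave 30, 4 and 95 higher. For the genotype effect of adults minus that of newborns (2 higher, 1 lower) the same settings gave 5, 4 and 10 higher and 2, 2 and 5 lower. Over all genes they gave 94, 235 and 918 higher and 340, 487 and 1213 lower. DESeq2 gave 13 higher and 1 lower for the genotype over both ages, 1 lower for age and 4 higher for labelled Egr1-/- against Egr1+/- mice, where edgeR gave 0. For open against closed eyes (4 higher), it gave 12, as did the fit with no replicate block for the mouse, and the mice with 1 open and 1 closed eye alone gave 11. Over all genes these 3 settings gave 331, 359 and 259 higher. The authors' totals moved the newborn median over all genes from -0.05 to 0.09 (log2). Leaving out each library in turn gave 0 to 21 members higher and 0 to 2 lower in newborns, 0 to 8 higher in adults, 0 to 6 higher and 0 to 6 lower for the difference between ages, 0 to 12 higher and 0 to 1 lower over both ages, and 8 to 16 higher and 0 to 6 lower for age; leaving out a mouse gave 0 to 8 higher for open eyes. Log2 fold changes of Lor ranged from -2.61 to 4.29 in newborns and from -3.20 to 0.36 with age over the libraries left out. Those of Casp14 ranged from -0.55 to 3.74 in newborns, -4.08 to 0.22 for the difference between ages, -0.43 to 2.81 over both ages and -2.60 to 0.74 with age. In each of these the value of the other sign came without newborn labelled Egr1-/- replicate 1. In closed eyes alone, Tgm1 (-0.53), Lor (-0.21) and Asprv1 (-0.18) reversed for labelled Egr1-/- against Egr1+/- mice. The cause of these changes was not tested. With replicate numbers as a block in newborns, Ivl no longer passed (2.31, edgeR adjusted p = 0.1); in labelled Egr1-/- libraries alone, the block turned Lor with age to 0.94. The numbers share no source in the labels. Low reads limit the Lce, Hrnr and Flg2 values.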
